A study of Mus musculus with 9 samples.

Results

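The interferon regulatory factor (IRF) genes were followed across 9 microarrays of FDCPmix cells, a nonleukemic mouse progenitor line that renews itself in IL-3 and can form several blood lineages. Their members were the probes whose transcript accession belonged to 8 listed genes, Irf1, Irf2, Irf3, Irf4, Irf5, Irf7, Irf8 and Irf9, and 11 probes were found, 2 each for Irf1, Irf8 and Irf9, out of 41174 probes and 16535 named genes on the array. All 11 probes entered the test, which covered 36585 probes and 15808 named genes, and each was well above background on all 9 arrays. There were 3 groups of 3 arrays. The cells were kept under self-renewal conditions and received lentivirus that was empty (EV) or carried an shRNA against Gata2 (Gata2 KD) or against Pu.1, whose gene symbol is Spi1 (Pu.1 KD). All groups were sorted for GFP at day 5 after transduction, so every cell of the controls also carries a virus, and each knockdown rests, as labelled, on 1 shRNA construct in 1 cell line. The labels call the samples triplicates without saying whether they came from separate cultures, so p-values measure the spread between these samples, which may be technical.

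Levels are log2 intensities minus the 75th percentile of their own array, so that 0 is the intensity below which 75% of probes lie. They can be compared between groups for 1 probe, and not between probes. A gene is called here when its Benjamini-Hochberg adjusted p over all tested probes, from limma fitted to the 9 arrays, was under 0.05, and where a gene had 2 probes the probe of higher mean level stands for it. The arrays lay on 3 slides, each with 1 array of each group, and between 80.4% and 89.6% of spots were well above background. As a check of the labels, Gata2 stood at 4.50, 5.04 and 4.86 in EV, at 3.61, 2.96 and 3.01 in Gata2 KD and at 4.53, 4.87 and 4.55 in Pu.1 KD. Spi1 stood at -1.66, -1.86 and -2.07 in EV, at -0.66, -0.36 and -0.39 in Gata2 KD and at -3.62, -3.64 and -3.52 in Pu.1 KD. Each targeted gene was lowest in the group labelled for it, without overlap, and Spi1 was also called higher in Gata2 KD (log2 change 1.39 ± 0.16 SE, adjusted p = 0.0012).

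IRF proteins are transcription factors that share a DNA-binding domain and recognise GAAA-containing elements known as interferon-stimulated response elements (ISRE). Irf3 and Irf7 are the factors that virus sensors and their kinases switch on to induce interferon, and Irf5 acts below Toll-like receptors. Irf9 is the DNA-binding subunit of the complex that carries the type I interferon signal, Irf1 is an interferon-gamma-induced activator, and Irf2 competes with it. Irf8 and its close relative Irf4 bind DNA with partners, PU.1 among them, at composite ETS-IRF elements (EICE), and Irf8 is known for its role in monocyte and dendritic cell development. Of the knockdown targets, PU.1 is thus a DNA-binding partner of members of this family, and GATA2 is a factor of the multipotent state.

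The sequence upstream of the 4 genes that were called in Gata2 KD is shown because they rose together, with matches to 5 motifs in capitals. Each is the 250 bases before a RefSeq start site (GRCm38.p6), written 5′ to 3′ along the gene: Irf8 from chr8:120736108-120736357 (+ strand), Irf1 from chr11:53769764-53770013 (+ strand), Irf5 from chr6:29526375-29526624 (+ strand) and Irf7 from chr7:141266425-141266674 (- strand). Irf1 and Irf8 each have another start site in the table, whose sequence held no match and is not shown.
Irf8: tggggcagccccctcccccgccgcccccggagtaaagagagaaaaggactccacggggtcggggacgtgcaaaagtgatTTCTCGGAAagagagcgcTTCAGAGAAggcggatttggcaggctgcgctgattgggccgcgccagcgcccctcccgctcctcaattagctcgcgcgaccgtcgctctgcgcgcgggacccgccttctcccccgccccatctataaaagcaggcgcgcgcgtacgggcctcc
Irf1: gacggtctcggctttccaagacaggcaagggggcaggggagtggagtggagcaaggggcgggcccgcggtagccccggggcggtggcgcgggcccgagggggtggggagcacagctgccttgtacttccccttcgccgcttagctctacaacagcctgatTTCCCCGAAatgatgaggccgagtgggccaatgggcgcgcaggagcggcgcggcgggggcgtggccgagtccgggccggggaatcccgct
Irf5: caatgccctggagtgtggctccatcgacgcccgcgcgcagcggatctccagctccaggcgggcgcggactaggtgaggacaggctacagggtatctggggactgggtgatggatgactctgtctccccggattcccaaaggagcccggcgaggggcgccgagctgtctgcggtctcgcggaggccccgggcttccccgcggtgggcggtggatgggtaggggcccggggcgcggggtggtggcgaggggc
Irf7: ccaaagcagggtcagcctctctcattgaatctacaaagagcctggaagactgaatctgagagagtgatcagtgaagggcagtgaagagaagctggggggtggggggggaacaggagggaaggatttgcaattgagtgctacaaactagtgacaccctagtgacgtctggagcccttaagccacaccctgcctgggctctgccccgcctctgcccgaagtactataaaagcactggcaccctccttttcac

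Matches were sought on both strands in the window from 250 bases before to 50 after each start site. The words were TTCNNNGAA for the STAT-type GAS element, GAAANNGAAA for the ISRE, GGAANNGAAA for the EICE, GAGGAAG for PU.1 and AGATAA for GATA, its first letter A or T and its last A or G. The ISRE and EICE words can overlap. The GAS word occurred 2 times in the Irf8 window, as TTCTCGGAA starting at position -171 and TTCAGAGAA at -153, and 1 time in that of Irf1, as TTCCCCGAA at -90. It was held by 8.3% of the 32851 promoters of the same length. The window of Irf7 held the GATA word AGATAA at position 3, just after its start site, a word class found in 29.8% of promoters, and that of Irf5 held no match. Among the 11 promoters of the 8 genes, Irf2 alone held the ISRE and EICE words, in overlapping matches at -241 and -247, along with a GAS and a PU.1 word. Those classes occurred in 3.44%, 2.72% and, for PU.1, 13.6% of promoters. The windows of Irf9 held PU.1 and GATA words, and those of Irf3 and Irf4 held no match.

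Knockdown of Gata2 was followed by higher levels of Irf8, Irf7, Irf5 and Irf1. In Gata2 KD against EV, 4 of the 8 genes were called higher and 0 lower by limma (5 and 0 at an unadjusted p under 0.05), where 4.21% of the 15808 tested genes were called higher and 2.95% lower. The median log2 change was 0.76 over the IRF genes and -0.09 over all tested genes. On 5 of the 8 genes the 3 arrays of each group did not overlap, against 23.1% of all genes.

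Irf8 had the largest change of the family. Its level was -1.87, -1.59 and -1.63 on the EV arrays and 2.74, 2.68 and 2.63 on the Gata2 KD arrays. Each knockdown array lay far above each control array, and the groups' own spreads were 0.15 (EV) and 0.06 (Gata2 KD) as SD with n = 3. The difference was 4.38 ± 0.13 (SE) on the log2 scale, a 20.8-fold rise (adjusted p = 3.47e-06), and it lay between 4.31 and 4.50 within the 3 slides.

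Irf7, the amplifier of type I interferon induction, stood at -2.86, -2.89 and -2.50 in EV and at -1.40, -0.83 and -1.00 in Gata2 KD. The groups did not overlap, and the gene rose by 1.67 ± 0.19 on the log2 scale (3.19-fold, adjusted p = 0.00136). Irf5, the factor that acts below Toll-like receptors, stood at -0.61, -0.58 and -0.72 in EV and at 0.57, 0.88 and 1.03 in Gata2 KD. It rose by 1.47 ± 0.15 (2.76-fold, adjusted p = 0.000853), again with no overlap. Irf1, the interferon-gamma-induced activator, stood at 2.54, 2.73 and 2.67 in EV and at 3.55, 3.39 and 3.42 in Gata2 KD. Its rise of 0.80 ± 0.14 (1.75-fold, adjusted p = 0.0115) was the smallest of the 4 called. The Irf1 call was lost with the replicate number as a block (adjusted p = 0.0593) and with arrays scaled to their medians (adjusted p = 0.0931).

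**Figure D1:**
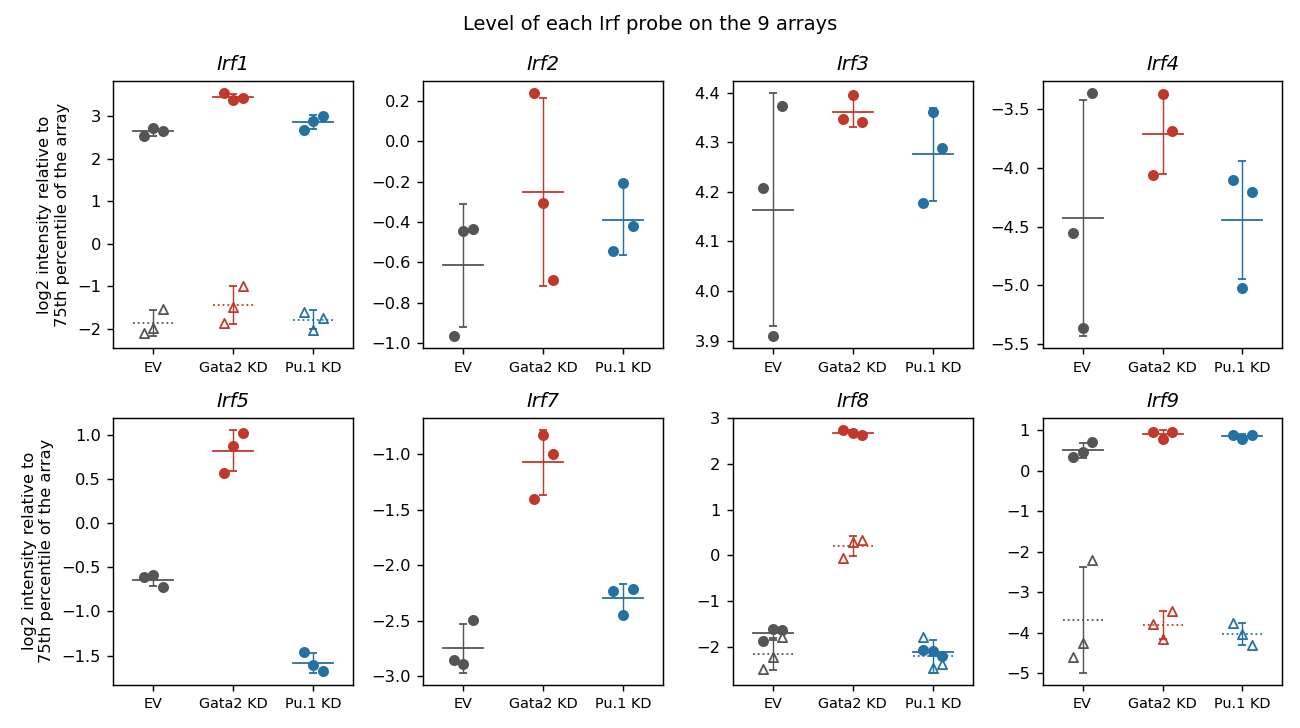
Level of each Irf probe on the 9 arrays (y axis, log2 intensity minus that array's 75th percentile; x axis, group; 3 arrays per group; horizontal lines and bars, mean ± SD). Filled circles and solid lines mark the probe that stands for the gene, open triangles and dotted lines the second probe of Irf1, Irf8 and Irf9; the y axes differ between panels, and Irf8 rises from between -1.87 and -1.59 in EV to between 2.63 and 2.74 in Gata2 KD.

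The other 4 genes did not pass the test in Gata2 KD against EV. Irf9, the DNA-binding subunit of the type I interferon complex, stood at 0.35, 0.46 and 0.71 in EV and at 0.96, 0.78 and 0.97 in Gata2 KD. Its groups did not overlap, and its difference was 0.40 (95% confidence interval 0.07 to 0.72, adjusted p = 0.213). Irf3, the partner of Irf7 in interferon induction, ranged from 3.91 to 4.37 in EV and from 4.34 to 4.40 in Gata2 KD, a difference of 0.20 (-0.15 to 0.54). Irf2, which competes with Irf1, ranged from -0.96 to -0.44 in EV and from -0.69 to 0.24 in Gata2 KD, a difference of 0.36 (-0.23 to 0.95). Irf4, the relative of Irf8 known for its roles in lymphocytes, was measured with wide spread, at -4.56, -5.36 and -3.36 in EV and -4.06, -3.37 and -3.69 in Gata2 KD. Its difference was 0.72 with an interval from -0.39 to 1.83, so a change of the size seen for Irf5 or Irf7 was not excluded for Irf4, whereas the intervals of Irf2 and Irf3 ended below those sizes.

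In the Pu.1 knockdown, Irf5 was the 1 gene of the 8 that passed the test, at a lower level than in EV, and Irf8 stood lower by less than the test could call. In Pu.1 KD against EV, 1 of 8 was called lower and 0 higher by limma (2 and 2 at an unadjusted p under 0.05), where 2.16% of all tested genes were called lower and 1.45% higher, and the median change was 0.16 over the family and -0.04 over all genes. Arrays did not overlap for 4 of the 8, against 20.6% of all genes. Irf5 stood at -1.46, -1.61 and -1.68 in Pu.1 KD, below all 3 EV arrays, and fell by 0.94 on the log2 scale (SE 0.15, 0.52 of the EV level, adjusted p = 0.0176). This call was not stable to the choice of arrays: the adjusted p was 0.0661 without EV replicate 1, 0.0706 without EV replicate 2, and 0.0643, 0.0794 and 0.0838 without Pu.1 KD replicates 1, 2 and 3. It was also lost with the replicate number as a block, with arrays scaled to their medians and with only the groups compared in the fit. The change itself ranged from -1.00 to -0.73 over 21 alternative settings.

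Irf8 stood at -2.07, -2.07 and -2.20 in Pu.1 KD, below all 3 EV arrays, but its difference of -0.42 (-0.72 to -0.12) did not pass the test (adjusted p = 0.179). Irf7 stood at -2.23, -2.45 and -2.21, above all EV arrays, with a difference of 0.45 (0.01 to 0.89, adjusted p = 0.385). Irf9 also stood above all EV arrays, at 0.88, 0.78 and 0.89, with a difference of 0.35 (0.02 to 0.67, adjusted p = 0.356). The differences of Irf1, Irf2, Irf3 and Irf4 lay between -0.02 and 0.22, and their groups overlapped. The interval of Irf4 again spanned -1.13 to 1.09.

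The knockdowns were also set directly against each other, which tests whether their effects on a gene differ; this comparison shares its arrays with the other 2. In Gata2 KD against Pu.1 KD, Irf8 (4.80 ± 0.13, 27.8-fold, adjusted p = 6.35e-07), Irf5 (2.41 ± 0.15, 5.32-fold, adjusted p = 2.96e-05), Irf7 (1.22 ± 0.19, 2.33-fold, adjusted p = 0.00424) and Irf1 (0.59 ± 0.14, 1.51-fold, adjusted p = 0.0305) were called higher in Gata2 KD. These were 4 of 8 genes, with 0 called lower by limma (also 0 at an unadjusted p under 0.05), where 6.77% of all tested genes were called higher and 5.6% lower. Arrays did not overlap for 5 of the 8 against 30.1% of all genes, the fifth being Irf4 (0.74, -0.37 to 1.85). Median changes were 0.66 over the family and -0.03 over all genes. The Irf1 call was lost without any 1 array of either knockdown, with adjusted p of 0.101, 0.0895 and 0.0911 without Gata2 KD replicates 1, 2 and 3 and of 0.123, 0.0873 and 0.051 without Pu.1 KD replicates 1, 2 and 3. Calls over all probes fell in these fits too, from 3524 to between 2206 and 2663.

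The order of the groups thus differed between members. Irf5 ran from Gata2 KD through EV to Pu.1 KD, with each neighbouring pair called. Irf8 ran in the same order, but EV and Pu.1 KD did not differ by the test. Irf7 and Irf1 were highest in Gata2 KD, and for them too EV and Pu.1 KD, in which the mean was slightly higher, did not differ by the test. Irf9 was nearly level between the knockdowns (0.05, -0.27 to 0.38), both of which stood above EV by less than the test could call.

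**Figure D2:**
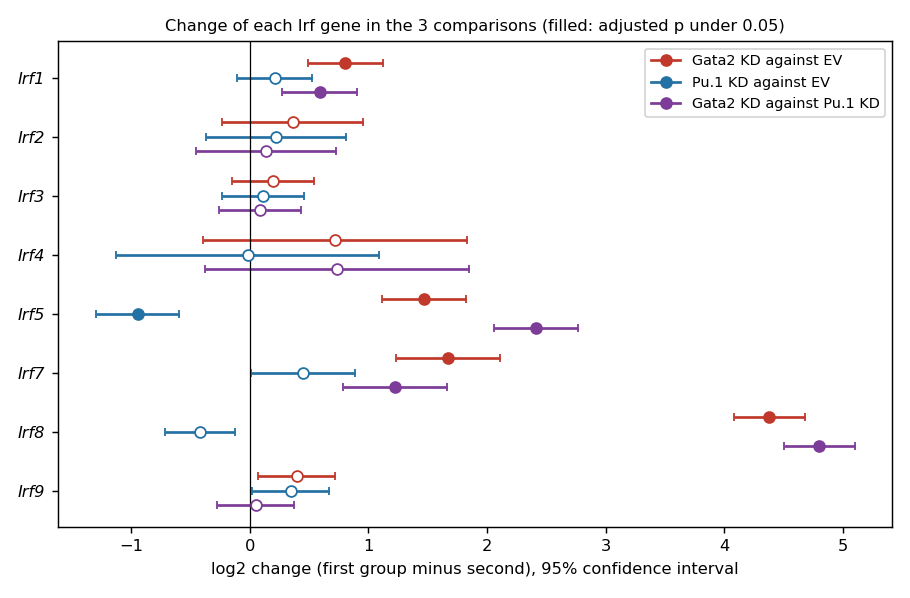
Change of each Irf gene in the 3 comparisons (x axis, log2 change of the first group named minus the second; bars, 95% confidence interval from limma; 3 arrays per group). Filled points have an adjusted p under 0.05; Irf8 lies at 4.38 and 4.80 in both comparisons of Gata2 KD, and Irf5 is the gene with called changes on both sides of 0.

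The second probes of 3 genes gave smaller or no changes. That of Irf8 stood at -2.47, -2.22 and -1.78 in EV, at -0.05, 0.30 and 0.35 in Gata2 KD and at -1.78, -2.45 and -2.36 in Pu.1 KD. It was called higher in Gata2 KD (2.36 ± 0.25, 5.12-fold, adjusted p = 0.000819), the direction of the first probe at a smaller size, and in Pu.1 KD its difference was -0.04 with overlapping groups. The second Irf1 probe differed by 0.42 in Gata2 KD (-0.17 to 1.01) and was not called. For Irf9 the second probe spread widely in EV, from -4.60 to -2.19, and differed by -0.12 (-1.41 to 1.17) in Gata2 KD, which gives no direction.

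For each called member, the 3 named genes with the most similar pattern were those with the smallest root mean square difference in level over the 9 arrays, after centring each gene on its own mean. Nearest to Irf8 were C3, the central complement component (0.14), Ugt1a6b, a glucuronosyltransferase (0.16), and Ctsh, a lysosomal cathepsin (0.22), against an SD of Irf8 itself of 2.30 over the arrays. Their log2 changes in Gata2 KD were 4.43, 4.41 and 4.08. Irf5 lay nearest to Rasgrp4, a Ras exchange factor of myeloid cells (0.19), Cyp4f18 (0.20) and Gsdme (0.23), all 3 of which were called higher in Gata2 KD, by 1.23 to 1.49, and lower in Pu.1 KD, by -0.96 to -0.89. Irf7 lay nearest to Slc7a7 (0.19), Ralgds (0.20) and Il17re (0.20), and Irf1 to Myo1g (0.08), Tpcn1 (0.10) and Sp110, a nuclear body protein (0.10). The likeness is a description over 9 arrays that share 3 groups.

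Genes that sense infection and activate IRF proteins were partly higher in Gata2 KD. Of 20 tested genes of this list, 5 were called higher and 0 lower by limma in Gata2 KD against EV (6 and 0 at an unadjusted p under 0.05), with a median change of 0.28. Over all tested genes, 4.21% were called higher and 2.95% lower in this comparison. Ikbke, an IRF3 and IRF7 kinase, rose by 2.67 ± 0.16 (adjusted p = 4.4e-05), and Unc93b1, the escort of nucleic-acid-sensing Toll-like receptors, by 2.29 ± 0.16 (adjusted p = 8.29e-05). Irak2, a Toll-like receptor kinase, rose by 1.15, Tlr7, a receptor for single-stranded RNA, by 1.51 and Ifih1, an RNA sensor of the cytosol, by 1.06. The Ifih1 call was lost with the replicate number as a block, with only the groups compared in the fit and with the mean of all its probes, which gave 0.68 (adjusted p = 0.443). The Tlr7 call was lost without any 1 array except EV replicate 3 (adjusted p up to 0.139), and with normexp background correction its change was 0.60. Tbk1, the kinase related to Ikbke, differed by 0.20 (adjusted p = 0.758). In Pu.1 KD, 1 of the 20 was called lower, Unc93b1 (-1.00 ± 0.16, adjusted p = 0.015), a call lost without EV replicate 1 or Pu.1 KD replicates 1 or 2 (adjusted p up to 0.062). As 2.16% of all tested genes were called lower there, this call describes Unc93b1 and not the list.

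Receptor genes for interferon-gamma and for type I interferon were called higher in Gata2 KD, the latter not under every alternative, while the interferon genes themselves were not called. Of 12 tested genes for ligands, receptors and the JAK-STAT relay, 4 were called higher and 0 lower by limma (6 and 1 at an unadjusted p under 0.05). The list median was 0.39, and 4.21% of all tested genes were called higher and 2.95% lower. The 4 were the interferon-gamma receptor chains Ifngr2 (1.44 ± 0.17, adjusted p = 0.00144) and Ifngr1 (1.12 ± 0.15, adjusted p = 0.0034), and the type I receptor chains Ifnar2 (0.89) and Ifnar1 (0.82). Ifngr1 and Ifngr2 kept their calls under all 21 alternatives, whereas the list's count was 2 without Gata2 KD replicate 2. The Ifnar2 call was lost without EV replicates 1 or 2 or Gata2 KD replicates 1 or 2 (adjusted p up to 0.095), with the replicate block, with median scaling and with only the groups compared. That of Ifnar1 was lost without Gata2 KD replicates 2 or 3 (adjusted p up to 0.0696), with the replicate block and with only the groups compared. Ifnb1, Ifna2, Ifna4 and Ifng differed by -0.18 to 0.24. Ifnb1 was dim, between -4.76 and -3.50 over the arrays, as was Ifng, between -4.86 and -3.98. Ifna4 spread from -5.05 to -3.13 in EV and was not well above background on EV replicate 3 and Gata2 KD replicate 1. The lack of a call therefore does not show that these transcripts were unchanged. In Pu.1 KD, 1 of 12 was called, Jak2, the kinase of the interferon-gamma receptor among others, which fell (-1.04 ± 0.15, adjusted p = 0.0125), a call lost without EV replicate 2 or any 1 Pu.1 KD array (adjusted p up to 0.065). With 2.16% of all tested genes called lower, this call describes Jak2 and not the list.

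Among 14 tested DNA-binding partners and cofactors, 2 were called in Gata2 KD, both higher: Batf3, an AP-1 family partner of IRF8 in dendritic cells (1.82 ± 0.19, adjusted p = 0.00073), and Spi1 itself, with a list median of 0.06. The share called higher over all tested genes was 4.21%. Spi1 was the 1 called in Pu.1 KD (-1.73 ± 0.16, adjusted p = 0.00178), as the target of that knockdown, and its size there was -1.00 with normexp background correction. Of 12 genes that restrain interferon and IRF signals, 3 were called higher in Gata2 KD and 1 lower, against 4.21% and 2.95% of all tested genes. Socs3 rose by 1.03, the phosphatase gene Ptpn6 by 0.87 and Nlrx1 by 0.82, and Socs1 fell by 0.85. None of these 4 calls held under every alternative, and the count was 0 without Gata2 KD replicate 2, 1 without EV replicate 2 or Gata2 KD replicate 3, and 2 without EV replicate 1 or Pu.1 KD replicate 1. In Pu.1 KD the 1 called was Usp18, a restraint of type I receptor signals (-0.96 ± 0.16, adjusted p = 0.0182), lost without EV replicates 2 or 3 or any 1 Pu.1 KD array (adjusted p up to 0.0742). There 2.16% of all tested genes were called lower and 1.45% higher. The list's count ranged from 0 to 3 over the 21 alternatives. Socs3 (0.60 in the main fit) was called higher in 5 of them and Ptpn6 (-0.62) lower in 4.

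Genes with ISRE-type regulation, the classical interferon-stimulated genes, had a median change of 0.94 in Gata2 KD, the highest of the 7 lists of genes that act with IRF proteins. Of 16 tested genes, 8 were called higher and 0 lower by limma (10 and 1 at an unadjusted p under 0.05), against 4.21% and 2.95% of all tested genes. Cxcl10, a chemokine, was not well above background on any EV array and reached -0.82 ± 0.23 (SD, n = 3) in Gata2 KD. That is 33.2-fold above a floor set on the EV arrays. The floor was each array's lowest signal of any probe well above background, or the probe's own signal where that was higher. It is not a detection limit, so the fold is not a lower bound. Oas2, an antiviral oligoadenylate synthetase, rose by 4.54 ± 0.36, Ifit3 by 4.35 ± 0.45 and Ifit1 by 1.63 ± 0.32, each with 2 of 3 EV arrays well above background. Rsad2 rose by 2.73 and the ubiquitin-like Isg15 by 1.97. The remaining 2 called genes, Oas1a and the guanylate-binding protein gene Gbp2, rose by 0.90 and 1.02. For these dim genes normexp background correction gave smaller changes, of 2.27 for Cxcl10, 2.51 for Oas2, 2.15 for Ifit3, 1.71 for Rsad2 and 0.57 for Ifit1, and the mean of all probes of a gene gave 2.20 for Oas2 and 0.98 for Rsad2. The Ifit1 call was lost without EV replicate 1 or any 1 Gata2 KD array (adjusted p up to 0.0838), that of Gbp2 without EV replicate 2 or any 1 Gata2 KD array (adjusted p up to 0.0928) and that of Oas1a without Gata2 KD replicate 2. All 3 were also lost with only the groups compared, and Oas1a with the replicate block and with median scaling too (adjusted p up to 0.0585). The count was 5 without Gata2 KD replicate 2 or with only the groups compared, and 4 among genes well above background on all 9 arrays.

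In Pu.1 KD, 2 of the 16 ISRE-type genes were called higher and 1 lower, against 1.45% and 2.16% of all tested genes, with a median of 0.08. Psmb9, an immunoproteasome subunit, rose by 0.69 ± 0.14 (adjusted p = 0.0443), a call lost without any 1 of the 9 arrays (adjusted p up to 0.192). Usp18 fell as given above. Cxcl10 was called by limma (1.45, adjusted p = 0.02) with only 1 of 3 Pu.1 KD arrays and 0 of 3 EV arrays above background. It stood 1.08-fold above the same EV floor, which again gives no lower bound. The Cxcl10 call was lost in 9 of 20 alternatives, among them leaving out EV replicates 1 or 2 or any 1 Pu.1 KD array (adjusted p up to 0.0705), and with normexp background correction its change was 0.13. The count of 3 was 1 without EV replicate 1 or EV replicate 2 and 0 without any 1 Pu.1 KD array or with the replicate block. Without EV replicate 1 the call left was Usp18. Without EV replicate 2 all 3 were lost, and the 1 counted was Tap1, not called in the main fit (1.49, adjusted p = 0.0542). Other alternatives gave more calls, up to 5. Tap1 was called higher in 7 of the 21, and Oas1a (-0.70, adjusted p = 0.0576 in the main fit) was called lower in 7.

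Genes described with PU.1-IRF8 composite sites were higher in Gata2 KD in 6 of 14 tested genes and lower in 0 by limma (6 and 0 at an unadjusted p under 0.05). The list median was 0.37, and 4.21% of all tested genes were called higher and 2.95% lower. Ctss, the cathepsin of antigen processing, rose by 6.13 ± 0.24 (70.1-fold, adjusted p = 7.49e-06), followed by Fcgr1, the high-affinity IgG receptor (1.79 ± 0.23), the cytokine genes Il1b (1.60) and Il18 (1.00), the MHC class II activator Ciita (1.28) and the protease inhibitor Cst3 (1.14). The Ciita call was lost without Gata2 KD replicate 2 (adjusted p = 0.059) and that of Il18 without any 1 of 7 arrays (adjusted p up to 0.155). Cybb was not called on the probe that stands for it (0.39, adjusted p = 0.803). With the mean of all its probes it was called higher, at 2.25. The list's count ranged from 4 to 7 over the 21 alternatives. In Pu.1 KD, 2 of 14 were called, both lower: Fcgr1 (-3.03 ± 0.23, adjusted p = 0.00127) and the transcription factor gene Klf4 (-1.32 ± 0.27, adjusted p = 0.0456), the latter lost without any 1 of the 9 arrays (adjusted p up to 0.125). The share called lower over all tested genes was 2.16%. Of 4 genes described as held down by IRF8, 0 were called against EV in either knockdown by limma (at an unadjusted p under 0.05, 0 in Gata2 KD and 1 in Pu.1 KD), with medians of -0.36 in Gata2 KD and 0.22 in Pu.1 KD. Set directly against each other, Bcl2, an inhibitor of apoptosis, was lower in Gata2 KD (-0.97 ± 0.16, adjusted p = 0.0062). Against EV, Bcl2 was called lower in Gata2 KD with the mean of all its probes (-0.67). In Pu.1 KD it was called higher in 4 of the 21 alternatives.

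**Figure D3:**
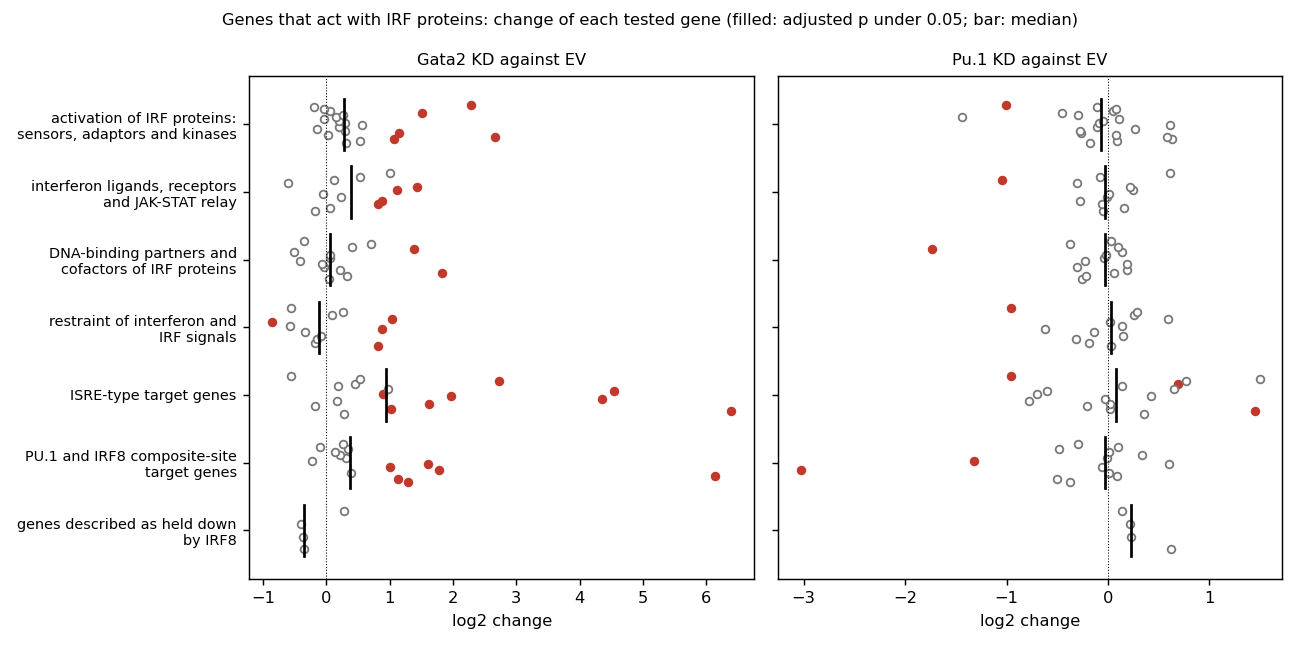
Changes of the tested genes of 7 lists of genes that act with IRF proteins, in Gata2 KD against EV (left) and Pu.1 KD against EV (right); x axis, log2 change; each point is a gene, filled where its adjusted p was under 0.05, and the vertical bar is the list's median. In the left panel 8 of 16 ISRE-type genes and 6 of 14 genes with PU.1-IRF8 composite sites are filled, all on the higher side.

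Markers of myeloid cells moved with the same groups. The 7 neutrophil granule genes were Elane, Mpo, Prtn3, Ltf, Camp, Ngp and Lcn2. All 7 were called higher in Gata2 KD and 6 of 7 lower in Pu.1 KD, against 4.21% and 2.16% of all tested genes. The summed intensity of the list, relative to the 75th percentile, ranged from 61.3 to 71.8 in EV, 544 to 558 in Gata2 KD and 9.77 to 12.3 in Pu.1 KD. Of 6 tested monocyte and macrophage markers, 5 were called higher in Gata2 KD, among them Csf1r, the M-CSF receptor (4.52 ± 0.20), and Cd14 (3.17 ± 0.17), and 2 lower in Pu.1 KD. Their sums ranged from 4.603 to 5.286 in EV, 28.2 to 30.3 in Gata2 KD and 2.35 to 2.83 in Pu.1 KD. The part of these cells in the changes of Irf8, Irf7, Irf5 and Irf1 was not tested, and in these bulk samples fewer cells of a type and less RNA per cell cannot be told apart. Of the 10 dendritic cell markers 0 were called in any comparison by limma (0 at an unadjusted p under 0.05), with sums of 5.25 to 5.99, 5.29 to 5.91 and 5.43 to 6.58 in EV, Gata2 KD and Pu.1 KD. B and plasma cell sums of 1.90 to 2.72 and T cell sums of 2.30 to 3.48 overlapped between the groups. Multipotent progenitor sums overlapped as well, from 72.0 to 94.5 over all arrays, with 3 of 10 genes called higher and 3 lower in Gata2 KD, Gata2 being 1 of the latter, and 1 higher and 2 lower in Pu.1 KD.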

How the data were processed

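Per the labels, 150 ng of total RNA from sorted FDCPmix cells was amplified, labelled with Cy3 and hybridised to 1-colour Agilent arrays, which were read with Feature Extraction 10.1.1.1. The authors deposited scanner intensity values (processed, median and background signals per spot) and a table of log2 values, whose array medians lie between 7.00 and 7.05 and whose normalization is not given in the sources used here. Processed intensity was taken to log2, outlier-flagged spots were left out, spots of a probe averaged and each array's 75th percentile subtracted. A probe was tested if well above background on at least 3 of 9 arrays with at least 2 values per group. The group means of all 9 arrays were fitted with limma 3.58.1 (lmFit, contrasts, eBayes, R 4.3.3), two-sided, with Benjamini-Hochberg adjustment over 36585 probes. The script was tested on simulated data. No mean signal column was used: normexp (offset 50) ran on median signals. Probes were named through RefSeq accessions, and promoters come from RefSeq (GRCm38.p6). Genes were named by rule: all members, both targets, at most 6 called genes per list and comparison with the largest changes, the 3 most similar genes per called member, and defining markers; Tbk1, Oas1a, Gbp2 and the interferon genes were named after their values were seen. The members and lists were chosen with earlier results of these data known. Precision is limited by the 3 arrays per group. Alternatives were block terms, slides, background correction, scaling, probe filters and rules, the deposited values and leaving out each array. Not tested for want of signal or a named probe were Tlr3, Tmem173, Irf2bp2, Mx1, Mx2, Ifi44, Xaf1, Il12b, Cd68 and Cd8a. A few list genes are not reported here and were left out of the counts.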

Additional observations from a re-analysis of the deposited data

How the results depend on the processing

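Each comparison was repeated under 21 alternatives, 9 of which leave out 1 array. Irf8, Irf7 and Irf5 kept their calls in Gata2 KD against EV under all 21, with log2 changes from 3.37 to 4.43, 1.22 to 1.83 and 1.34 to 1.59. The number of IRF genes called there was 4, and 3 with the replicate number as a block (the replicate block) or arrays scaled to their medians; leaving out 1 array gave 4 to 4. In Gata2 KD against Pu.1 KD it was 4, or 3 with the replicate block, with scaling to the median, with only the groups compared in the fit and with the mean of all probes of a gene, and 3 to 4 on leaving out 1 array. In Pu.1 KD against EV the 1 call, Irf5, became 0 with the replicate block, with scaling to the median and with only the groups compared in the fit, and 0 to 1 on leaving out 1 array; the cause was not tested. Same-numbered samples deviated together with correlations of -0.55 to 0.65 (median 0.07, against 0.04 for other numbers), so the number was not taken as a pairing. Arrays of 1 slide correlated at -0.04 to 0.72 (median 0.48, against -0.32 for arrays on different slides). Deviations were taken from each group's own mean, so likeness within slides lowers the values between slides, and -0.32 is not separate evidence. The likeness was strongest on the slide of EV replicate 2, Gata2 KD replicate 1 and Pu.1 KD replicate 2 (0.65 to 0.72). On the other slides it was -0.04 to 0.52, and between those slides 0.07 to 0.35. Deviations thus went mainly with 1 slide. The main fit leaves the slide out. Slide as a block left the counts at 4, 1 and 4. Over all 36585 probes, calls against EV went from 1902 to 1172 (Gata2 KD) and from 986 to 234 (Pu.1 KD) with the replicate block, to 1203 and 377 with median scaling, to 1114 and 223 with only the groups compared, and to 2886 and 1875 with slide as a block. Leaving out 1 array gave 1072 to 1700 calls (Gata2 KD) and 281 to 824 (Pu.1 KD), so single calls were also lost as calls fell across the array.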
